A study of Mus musculus with 16 samples.

Results

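The chromatin at the loci of 6 transcription factors of the cerebellar granule cell lineage (Atoh1, Barhl1, Zic1, Zic4, Zic2 and Zic5) was described in mouse medulloblastomas taken at postnatal day 13 (P13). These tumours either overexpressed SmoM2, an active form of the Hedgehog signal transducer Smoothened, or lacked both Sufu and Spop (double knockout, DKO), which restrain Gli proteins. ChIP-seq, which sequences the DNA bound to a precipitated protein, was run in each genotype against Gli2, H3K27ac and H3K36me3, with 2 libraries per antibody and 2 of input DNA, and each genotype and antibody is represented by 1 merged peak list. No genotype difference below therefore has a replicate check or a p-value, and the read depth of the histone lists is unknown. The sources used here give neither the driver of SmoM2 or of the deletions nor whether the libraries came from separate animals. In whole tumours, fewer cells carrying a mark and less of it per cell cannot be told apart.

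Members were all regions of the 6 lists within 4 fixed windows of mouse build mm9. The Atoh1 window was chr6:64600001-64750000, the Barhl1 window chr2:28700001-28850000, the shared window of Zic1 and Zic4 chr9:91150001-91350000 and that of Zic2 and Zic5 chr14:122780001-122980000. The windows held 155 of the 209254 regions of all lists. These were 24 of 21630 H3K27ac regions in SmoM2 and 29 of 29504 in DKO tumours, 53 of 89482 H3K36me3 regions in SmoM2 and 48 of 67064 in DKO tumours, 0 of 148 Gli2 peaks in SmoM2 and 1 of 1426 in DKO tumours. No gene annotation of mm9 was used, so gene starts, exons and introns were not placed inside the windows and each window is named only by the genes it was fixed for.

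Atoh1 is a basic helix-loop-helix factor that specifies granule cell progenitors and holds them in the progenitor state, and it binds E-box sequences. Barhl1 is a homeodomain factor expressed in the same lineage. Zic1, Zic2, Zic4 and Zic5 are zinc finger factors whose fingers are related to those of the Gli proteins, and Zic genes are active in granule cell progenitors and their progeny. These progenitors divide in response to Sonic hedgehog and are the cells from which Hedgehog-driven medulloblastoma arises. Gli2 is the main activator of that response, H3K27ac is an acetylation found at promoters and enhancers in use, and H3K36me3 is a methylation laid down along genes as they are transcribed. In the mouse gene order (RefSeq, GRCm38.p6, used for order only) Barhl1 lies between the coding genes Ddx31 and Cfap77. Zic1 adjoins Zic4, followed by Plscr5, and Zic5 adjoins Zic2, with Clybl and Pcca on either side.

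Promoter sequences were searched to show what the genes hold near their starts, since the sequence under the Gli2 peak could not be read without an mm9 genome. RefSeq promoters (GRCm38.p6, 250 bases before to 50 after the start) were found for 5 of the 6 genes, with 2 for Barhl1. The Gli motif GACCACCCA was searched on both strands and was absent from all 6 promoters, also with 1 mismatch allowed. Over all 32851 promoters, 0.253% held it exactly and 6.74% with at most 1 mismatch, so most promoters lack it. The E-box CANNTG, the same on both strands, was in 5 of these 6 promoters (72.3% of all promoters), and its form CAGCTG in both Barhl1 promoters (16.3% of all). The Atoh1 promoter had no E-box, the first Barhl1 promoter 1, the second 2, the Zic1 promoter 1, the Zic4 promoter 2 and the Zic5 promoter 1. CG dinucleotides numbered 31 in the Zic1, 20 in the Atoh1, 15 in the Zic5 and 8 in the Zic4 promoter, against a median of 7. The first Barhl1 promoter had 9 and the second 14. One promoter from each of 3 windows is shown 5′ to 3′, with E-boxes in capitals. Atoh1 is on the plus strand and the others on the minus strand. They were not placed on mm9, so none of the marked regions below is assigned to them.
Atoh1: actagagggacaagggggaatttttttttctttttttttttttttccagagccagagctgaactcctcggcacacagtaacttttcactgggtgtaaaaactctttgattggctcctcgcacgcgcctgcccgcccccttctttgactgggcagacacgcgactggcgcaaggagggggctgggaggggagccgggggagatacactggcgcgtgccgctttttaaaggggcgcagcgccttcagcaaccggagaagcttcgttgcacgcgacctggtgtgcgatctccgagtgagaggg
Barhl1: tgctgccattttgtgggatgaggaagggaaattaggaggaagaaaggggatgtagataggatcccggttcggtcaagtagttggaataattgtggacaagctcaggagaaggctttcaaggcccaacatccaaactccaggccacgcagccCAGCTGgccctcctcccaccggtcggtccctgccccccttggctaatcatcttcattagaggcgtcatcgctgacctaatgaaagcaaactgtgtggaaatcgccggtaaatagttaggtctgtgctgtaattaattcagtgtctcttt
Zic1: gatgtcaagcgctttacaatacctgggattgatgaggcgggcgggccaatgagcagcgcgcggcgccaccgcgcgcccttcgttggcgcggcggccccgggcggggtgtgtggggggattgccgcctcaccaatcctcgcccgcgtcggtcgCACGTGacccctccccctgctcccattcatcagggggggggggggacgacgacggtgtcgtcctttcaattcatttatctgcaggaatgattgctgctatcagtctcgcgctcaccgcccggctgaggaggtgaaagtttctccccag

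Few Gli2 peaks were called at these loci, as in most of the genome. Of all stretches of 150 and 200 kb, 6.11% and 7.86% held a DKO peak, and 0.796% and 1.03% a SmoM2 peak. The only Gli2 peak of the 4 windows lay in the Atoh1 window of DKO tumours, at chr6:64653756-64653871, with its summit at 64653812. The DKO list as a whole had 9.64 times as many peaks as the SmoM2 list and 12.3 times as many bases. When only the top 148 DKO peaks by q were kept, to match the length of the SmoM2 list, the 4 windows held 0. The peak in the Atoh1 window had a fold enrichment over the caller's background, as the authors give it, of 8.70 and a −log10 q of 12.1. It ranked 858 by q and 796 by fold among 1426 DKO peaks. The median fold of that list was 9.57. By width, at 116 bases, it ranked only 1387, against a median of 165 bases. The deposited fold and p correspond to 19 fragments at the summit (exact Poisson 95% interval 11.4–29.7, counting error only) over a background of 1.30, which was the lowest background in the list. The Barhl1, Zic1 and Zic4, and Zic2 and Zic5 windows held no Gli2 peak in either genotype. In DKO tumours the nearest peak to the Barhl1 window was 236 kb beyond its right edge at chr2:29086020-29086205 (fold 14.4). It was 305 kb to the right of the Zic2 and Zic5 window at chr14:123285219-123285415 (fold 14.8) and 3956 kb to the left of the Zic1 and Zic4 window. In SmoM2 tumours no Gli2 peak lay within 1664 kb of any of the 4 windows. Peaks that were not called do not show absence of binding.

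The peak near Atoh1 stood beside, not inside, acetylated chromatin. H3K27ac covered none of its bases in SmoM2 or in DKO tumours. The nearest region in DKO tumours ended 213 bases to its left, at chr6:64653298-64653542, and was a small region called in DKO tumours only (245 bases, fold 3.37). That region was weakly called, 81.5% of the DKO H3K27ac list having as high a −log10 q. The nearest region in SmoM2 tumours, at chr6:64644528-64645870, was 7.88 kb away. The widest acetylated region of the window began 23.3 kb to its right. Of all DKO Gli2 peaks, 53.0% overlapped DKO H3K27ac and 20.7% lay within 1 kb of it without overlap, as this one did.

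Stretches with a Gli2 peak were a small part of the genome, and were more frequent where more bases were acetylated. Build mm9 was divided into a fixed grid of stretches of the windows' lengths. Of 17592 stretches of 150 kb, 6.11% held at least 1 DKO Gli2 peak and 0.796% a SmoM2 peak, and of 13191 stretches of 200 kb 7.86% and 1.03%. Among the 216 stretches with at least as many DKO H3K27ac bases as the Atoh1 window, 62.0% held a DKO Gli2 peak, and among the 75 at the level of the Barhl1 window 72.0% did. At the level of the Zic1 and Zic4 window it was 25 of 29 (86.2%), and at that of the Zic2 and Zic5 window 13 of 13 (100%). Most stretches at least as acetylated as the Zic windows thus held a DKO Gli2 peak, whereas both Zic windows and the Barhl1 window held 0. Each set also holds all stretches more acetylated than its window, so sets of 1 stretch length are nested and their shares are not separate observations. They were not matched for the number or width of acetylated regions. The stretches may include parts of the windows. In the same 4 sets, SmoM2 Gli2 peaks were present in 12.5%, 21.3%, 31.0% and 38.5%. The comparison with stretches at least as acetylated as a window was added after the data were seen. These shares describe 1 list per genotype and were not tested.

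**Figure D1:**
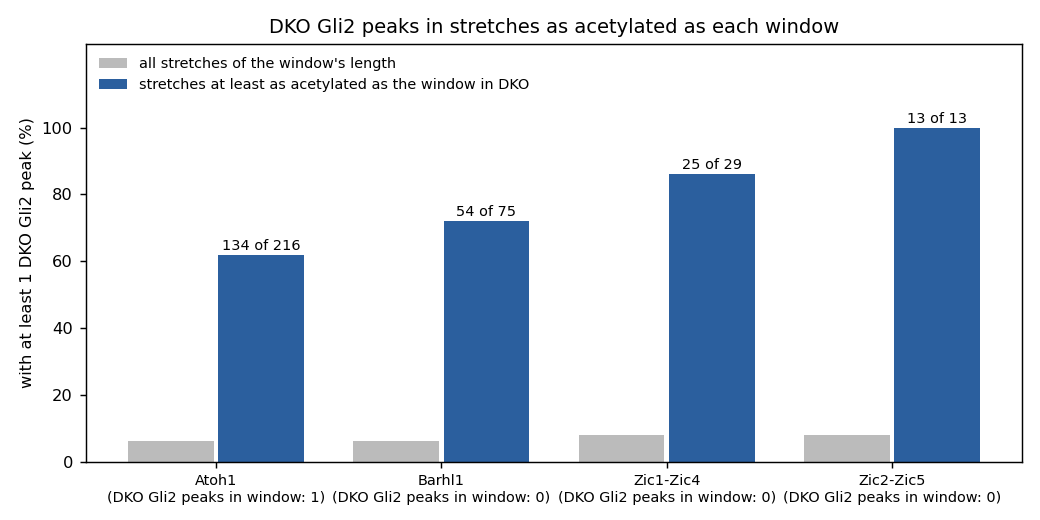
Percentage of genome stretches with at least 1 DKO Gli2 peak (vertical axis), for all stretches of each window's length (grey) and for those with at least as many DKO H3K27ac bases as the window (blue, with counts above the bars). The blue bars run from 62.0% to 100%, whereas only the Atoh1 window itself held a Gli2 peak. The comparison in blue was chosen after the data were seen.

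H3K27ac covered long stretches of all 4 windows in both genotypes, most in the Zic windows. In the Zic2 and Zic5 window its regions came to 49.4 kb in SmoM2 tumours and to 58.2 kb in DKO tumours, or 24.7% and 29.1% of the window. Only 5 of 13191 stretches of 200 kb had as many acetylated bases in SmoM2 tumours, and 13 in DKO tumours. In the Zic1 and Zic4 window they came to 38.2 kb (SmoM2) and 42.9 kb (DKO), a level reached by 22 and 29 stretches. The Barhl1 window had 23.7 kb and 26.2 kb, reached by 53 and 75 of 17592 stretches of 150 kb. The Atoh1 window had the least, 11.1 kb and 14.5 kb, and 1.38% and 1.23% of stretches had as much. A grid line may divide a block that a window holds whole, which lowers these counts.

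DKO tumours had more acetylated bases in each window. The ratio of DKO to SmoM2 was 1.30 for Atoh1, 1.10 for Barhl1, 1.12 for Zic1 and Zic4 and 1.18 for Zic2 and Zic5, and 1.16 over all 4 windows (142 and 122 kb). The lists as a whole had a ratio of 1.33, above that of each window. For Atoh1 the order turned with the window widened by 50 kb (1.35) and with regions joined at most 1 kb apart (1.46, lists 1.35) or 10 kb apart (1.63, lists 1.44). With only regions at a −log10 q of at least 5, the Atoh1 ratio was again below that of the lists (1.49, lists 1.70). A ratio above 1 was the rule, being found in 72.5% of 6997 stretches of 150 kb and 73.3% of 6084 stretches of 200 kb that were acetylated in both lists. None of the 4 windows reached a ratio of 1.5, which 38.8% and 39.4% of these stretches did, although Atoh1 passed it with regions joined at 10 kb. Of stretches of the same length, 49.3% had a lower ratio than the Atoh1 window, 35.4% than the Barhl1 window, 35.7% than that of Zic1 and Zic4 and 39.8% than that of Zic2 and Zic5. Over the acetylated bases of the windows the fold enrichment averaged 7.56 in SmoM2 tumours and 9.82 in DKO tumours, values that describe 1 list each and are not compared. With 1 list per genotype, more acetylation and more complete calling cannot be told apart.

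**Figure D2:**
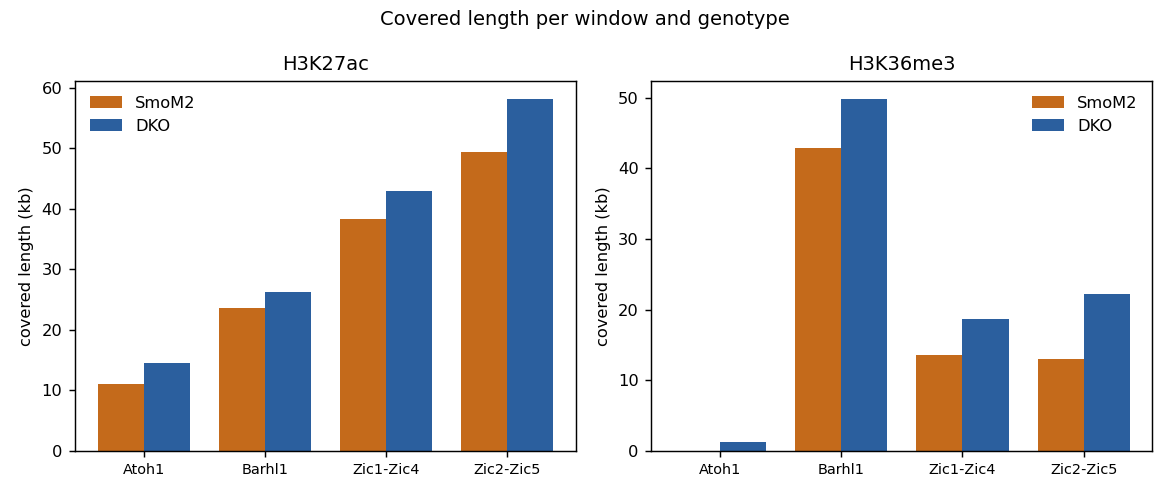
Covered length in kb (vertical axis) of H3K27ac (left) and H3K36me3 (right) in each window, as 1 bar per merged list with no error bar because there are no replicate lists. DKO bars are higher in each pair, by ratios of 1.10 to 1.30 for H3K27ac, and the Atoh1 window has no H3K36me3 bar in SmoM2 tumours.

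The acetylated sequence was largely common to both genotypes. In the 4 windows 121 kb were acetylated in both, or 98.5% of what was acetylated in SmoM2 and 85.0% in DKO tumours. All 24 SmoM2 regions overlapped a DKO region, whereas 26.6% of the whole SmoM2 list, with 9.65% of its bases, overlapped none. The 24 were 632 to 30030 bases wide, whereas those of the whole list without overlap had a median of 215 bases. The part of width in this difference was not tested. Of the 29 DKO regions, 11 (37.9%) overlapped no SmoM2 region, compared with 47.3% of the whole DKO list. These 11 were 114 to 586 bases wide and held 2.52% of the DKO bases here, compared with 19.7% in the whole list. Of the 21.2 kb acetylated in DKO tumours only, 17.4 kb (82.3%) lay at the edges of, or in gaps between, regions that SmoM2 tumours also had. The Atoh1 window differed in this, since only 27.5% of its 3.35 kb did so and 7 of its 10 DKO regions were called in DKO tumours alone.

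**Figure D3:**
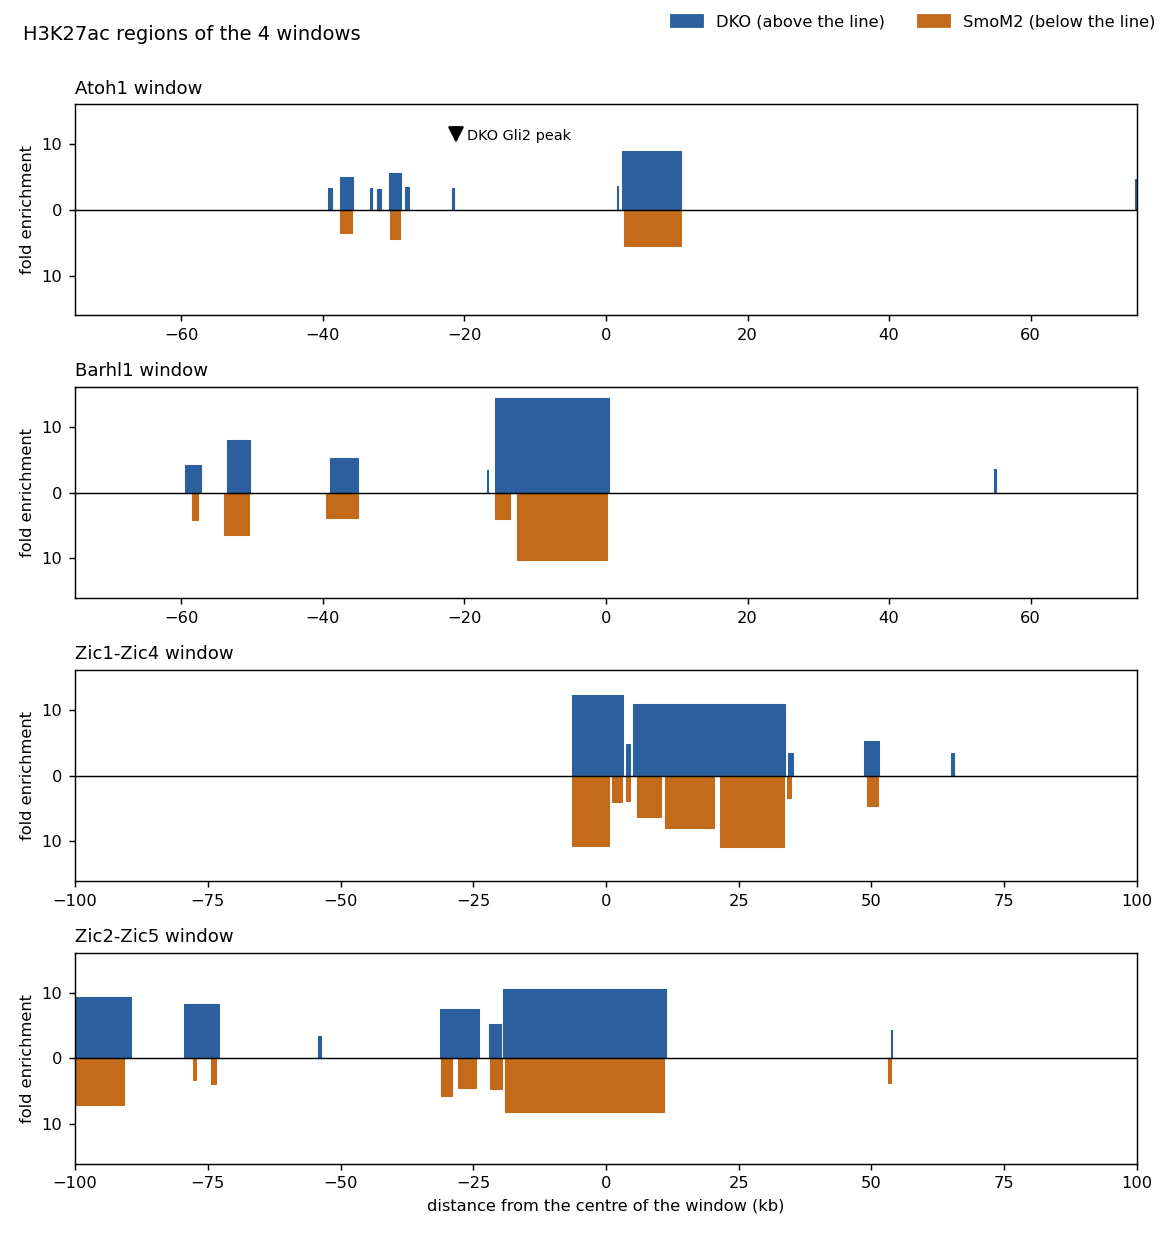
H3K27ac regions along the 4 windows, as distance from the window's centre in kb (horizontal axis) against the authors' fold enrichment (vertical axis), with DKO regions drawn above and SmoM2 regions below the line. The widest regions of each window overlap between genotypes, whereas 1 DKO region of 6.63 kb in the Zic2 and Zic5 window is mostly unmarked in SmoM2 tumours. The triangle marks the only Gli2 peak, in the Atoh1 window.

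In the Atoh1 window, a single wide region stood apart from a cluster of small ones. The wide region was chr6:64677478-64685574 in SmoM2 tumours (8.10 kb, fold 5.52) and chr6:64677208-64685663 in DKO tumours (8.46 kb, fold 8.90), ranking 88 and 115 by width in their lists. To its left, SmoM2 tumours had 2 regions, at chr6:64637417-64639095 (1.68 kb, fold 3.58) and chr6:64644528-64645870 (1.34 kb, fold 4.37). DKO tumours had both of these, at chr6:64637418-64639303 (1.89 kb, fold 4.94) and chr6:64644348-64646044 (1.70 kb, fold 5.58), with 5 further small regions around them. The 7 regions spread over 17.8 kb of which 5.75 kb were acetylated, and the last of them is the one beside the Gli2 peak. The widest region called only in DKO tumours was chr6:64642636-64643221 (0.586 kb, fold 3.17).

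The Barhl1 window held the H3K27ac region with the highest fold enrichment of the 4 windows in DKO tumours, while in SmoM2 tumours that region lay in the Zic1 and Zic4 window. The DKO region, of 16.2 kb at chr2:28759267-28775428, had a fold of 14.4 and ranked 22 by fold of 29504. SmoM2 tumours had 2 regions there, separated by 961 bases, at chr2:28759317-28761416 (2.10 kb, fold 3.99) and chr2:28762378-28775092 (12.7 kb, fold 10.3). The larger ranked 46 by fold and 27 by width of 21630. Other wide regions were at chr2:28735486-28739988 (4.50 kb, fold 3.88) and chr2:28721046-28724538 (3.49 kb, fold 6.39) in SmoM2 tumours. In DKO tumours these were chr2:28736028-28740028 (4.00 kb, fold 5.34) and chr2:28721419-28724718 (3.30 kb, fold 7.95), a little narrower than in SmoM2 tumours. Of the 4 windows this one had the most sequence acetylated in SmoM2 tumours alone, 0.915 kb of the 1.86 kb in all. The right part of the window had only 1 region, of 243 bases, called in DKO tumours alone at chr2:28829811-28830053 (fold 3.57).

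The Zic1 and Zic4 window held a nearly continuous acetylated block. After joining regions at most 10 kb apart it spanned 41.3 kb in SmoM2 tumours (chr9:91243574-91284861, 36.2 kb acetylated in 7 regions) and 41.6 kb in DKO tumours (chr9:91243576-91285188, 39.7 kb in 4 regions). Its outer ends thus differed by 2 bases on the left and by less than 0.5 kb on the right. Within it DKO tumours had a region of 28.5 kb at chr9:91255181-91283664 (fold 10.9), the ninth widest of the list. SmoM2 tumours had 3 regions in that span, at chr9:91255938-91260443 (4.51 kb, fold 6.36), chr9:91261031-91270437 (9.41 kb, fold 8.03) and chr9:91271522-91283547 (12026 bases, fold 10.8). The gaps between them came to 1671 bases. The left end was chr9:91243574-91250591 in SmoM2 tumours (7.02 kb, fold 10.7) and chr9:91243576-91253141 in DKO tumours (9.57 kb, fold 12.2), the latter spanning a further gap of 606 bases. A separate region to the right was chr9:91299263-91301313 in SmoM2 tumours (2.05 kb, fold 4.63) and chr9:91298646-91301411 in DKO tumours (2.77 kb, fold 5.30). The only DKO region with no SmoM2 counterpart was chr9:91315021-91315475 (fold 3.36).

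The Zic2 and Zic5 window held one of the widest regions of either list. It was chr14:122860952-122890981 in SmoM2 tumours (30.0 kb, fold 8.12, rank 4 by width) and chr14:122860635-122891257 in DKO tumours (30.6 kb, fold 10.5, rank 7). Of the DKO region, 98.1% was acetylated in SmoM2 tumours. At the left edge, a region that ran past the window was chr14:122772542-122789294 in SmoM2 tumours (16.8 kb, fold 7.01) and chr14:122772371-122790606 in DKO tumours (18.2 kb, fold 9.41). Between these, 2 places accounted for most of the difference. At chr14:122800453-122807085 DKO tumours had a region of 6.63 kb (fold 8.25) of which only 25.6% was acetylated in SmoM2 tumours, where 2 regions of 720 and 979 bases were separated by 2762 bases. At chr14:122848696-122856161 they had a region of 7.47 kb (fold 7.55), 73.9% of it acetylated in SmoM2 tumours, with SmoM2 regions at chr14:122848858-122851051 (2.19 kb, fold 5.68) and chr14:122852154-122855477 (3.32 kb, fold 4.56). The only DKO region with no SmoM2 counterpart was chr14:122825746-122826235 (0.490 kb, fold 3.35).

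H3K36me3 was most extensive in the Barhl1 window and nearly absent from the Atoh1 window. It covered 42.8 kb of that window in SmoM2 and 49.9 kb in DKO tumours, 13.6 and 18.6 kb of the Zic1 and Zic4 window, and 13.1 and 22.2 kb of the Zic2 and Zic5 window. With regions at most 10 kb apart joined, the mark of the Barhl1 window formed 1 block per genotype, which ran past the window's left edge. The block was chr2:28677352-28769672 for SmoM2 (92.3 kb long) and chr2:28675483-28770305 for DKO (94.8 kb long). Whether this mark belongs to Barhl1 or to a neighbour such as Ddx31 was not tested, because genes were not placed on mm9. The Atoh1 window had no H3K36me3 region in SmoM2 and 1 in DKO tumours, of 1.31 kb. As many marked bases were found in 5.37% (SmoM2) and 5.39% (DKO) of stretches for Barhl1, in 24.4% and 23.5% for Zic1 and Zic4, and in 24.9% and 21.3% for Zic2 and Zic5. For the DKO region of the Atoh1 window it was 35.8%. None of the windows thus stood as high for this mark as for H3K27ac. The ratio of DKO to SmoM2 was 1.16 for Barhl1, 1.37 for Zic1 and Zic4 and 1.70 for Zic2 and Zic5, and 1.32 over all 4 windows (91.9 and 69.4 kb), where the lists as a whole had 1.19. A ratio above 1 was found in 82.9% of 6779 stretches of 150 kb and 84.6% of 5720 stretches of 200 kb marked in both lists. Only the Zic2 and Zic5 window passed 1.5, as did 23.9% and 23.5% of these stretches. A wider or narrower window, a fold of at least 3 or joining at 1 kb gave this window 1.73 to 1.84. When regions at most 10 kb apart were joined its ratio was 1.33 (lists 1.03). Over all 4 windows, 84.1% of the SmoM2 and 63.5% of the DKO H3K36me3 bases were marked in both genotypes. Regions without a counterpart were 14 of 53 (26.4%) in SmoM2 tumours, near the 25.2% of the whole list, and 19 of 48 (39.6%) in DKO tumours, where the whole list had 31.1%. The 19 DKO regions held 11.0% of the DKO bases, compared with 6.61% in the whole list.

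**Figure D4:**
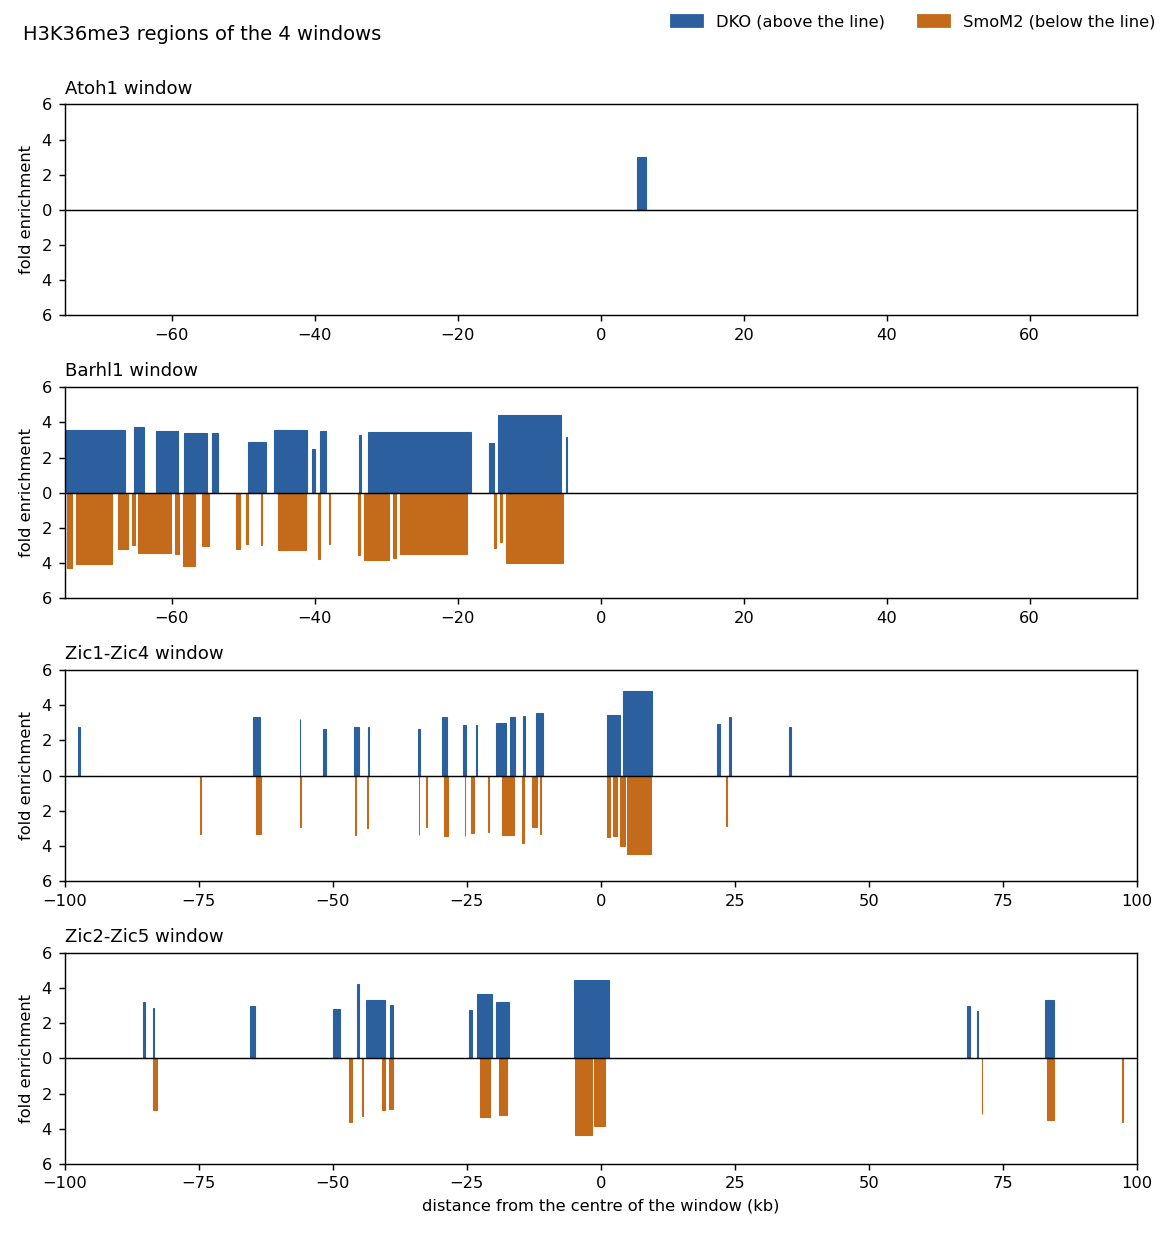
H3K36me3 regions along the 4 windows, as distance from the window's centre in kb (horizontal axis) against the authors' fold enrichment (vertical axis), with DKO above and SmoM2 below the line. The left part of the Barhl1 window is densely marked in both genotypes, and the widest region of each Zic window lies within 10 kb of its centre.

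In both Zic windows the widest H3K36me3 region sat mostly or wholly within the acetylated block. For Zic1 and Zic4 it was chr9:91254981-91259387 in SmoM2 tumours (4.41 kb, fold 4.47) and chr9:91254189-91259626 in DKO tumours (5.44 kb, fold 4.82), with 78.3% and 86.9% of it acetylated in the same genotype. The next widest were chr9:91231634-91233767 in SmoM2 tumours (2.13 kb) and chr9:91251225-91253553 (2.33 kb) and chr9:91230409-91232408 (2.00 kb) in DKO tumours. The third in SmoM2 tumours was chr9:91253552-91254495 (0.944 kb). For Zic2 and Zic5 the region was chr14:122874970-122881525 in DKO tumours (6.56 kb, fold 4.47) and 2 regions in SmoM2 tumours, chr14:122875255-122878296 (3.04 kb, fold 4.36) and chr14:122878747-122880812 (2.07 kb, fold 3.85). All 3 were acetylated along their whole length. A region of 3.58 kb at chr14:122836224-122839798 in DKO tumours (fold 3.33) had only 15.0% of its bases marked in SmoM2 tumours. Another at chr14:122856829-122859761 in DKO tumours (2.93 kb) enclosed the third widest SmoM2 region, chr14:122857506-122859247 (1.74 kb). Of the DKO bases without H3K36me3 in SmoM2 tumours in this window (11.2 kb), 4.24 kb lay in 7 regions called in DKO tumours alone. These were 50.0% of the window's 14 DKO regions and 19.1% of their bases, compared with 31.1% and 6.61% in the whole DKO list.

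In the Atoh1 window the single H3K36me3 region, chr6:64680083-64681388 (1.31 kb, fold 3.00), lay wholly within the wide acetylated region and 26.2 kb from the Gli2 peak. It was weakly called, 64.2% of the DKO list having as high a −log10 q. The nearest SmoM2 H3K36me3 region was 340 kb from the Gli2 peak. The Barhl1 window differed from the others in having its widest H3K36me3 region outside acetylated sequence. This was chr2:28746886-28756257 in SmoM2 (9.37 kb, fold 3.48) and chr2:28742437-28756848 in DKO tumours (14.4 kb, fold 3.45). The next regions, chr2:28761790-28769672 in SmoM2 (7.88 kb, fold 4.01) and chr2:28760670-28769479 in DKO tumours (8.81 kb, fold 4.45), were acetylated over 92.5% and 100% of their length. DKO tumours also had chr2:28699553-28708487 at the left edge (8.94 kb, fold 3.57), where SmoM2 tumours had 3 regions, the widest at chr2:28701610-28706653 (5.04 kb, fold 4.09).

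A larger share of H3K36me3 bases was acetylated in these windows, which are rich in H3K27ac, than in the lists as a whole. Of the H3K36me3 bases in the 4 windows, 32.9% in SmoM2 and 34.3% in DKO tumours were also acetylated, compared with 0.703% and 1.25% over the whole lists. By window the share was 58.4% and 50.2% for Zic2 and Zic5, 40.7% and 40.2% for Zic1 and Zic4, and 22.6% and 23.4% for Barhl1. The single DKO region of the Atoh1 window lay in acetylated sequence over its whole length. As a share of acetylated bases the overlap was 18.6% and 22.3% in the windows, against 5.14% and 8.20% in the lists. The windows are also much more acetylated than the genome. H3K27ac covered 17.5% (SmoM2) and 20.3% (DKO) of their bases, against 18.9 and 25.2 megabases in all over the whole lists. A higher overlap in the windows thus follows in part from their acetylation alone, and the size of that part was not tested.

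**Figure D5:**
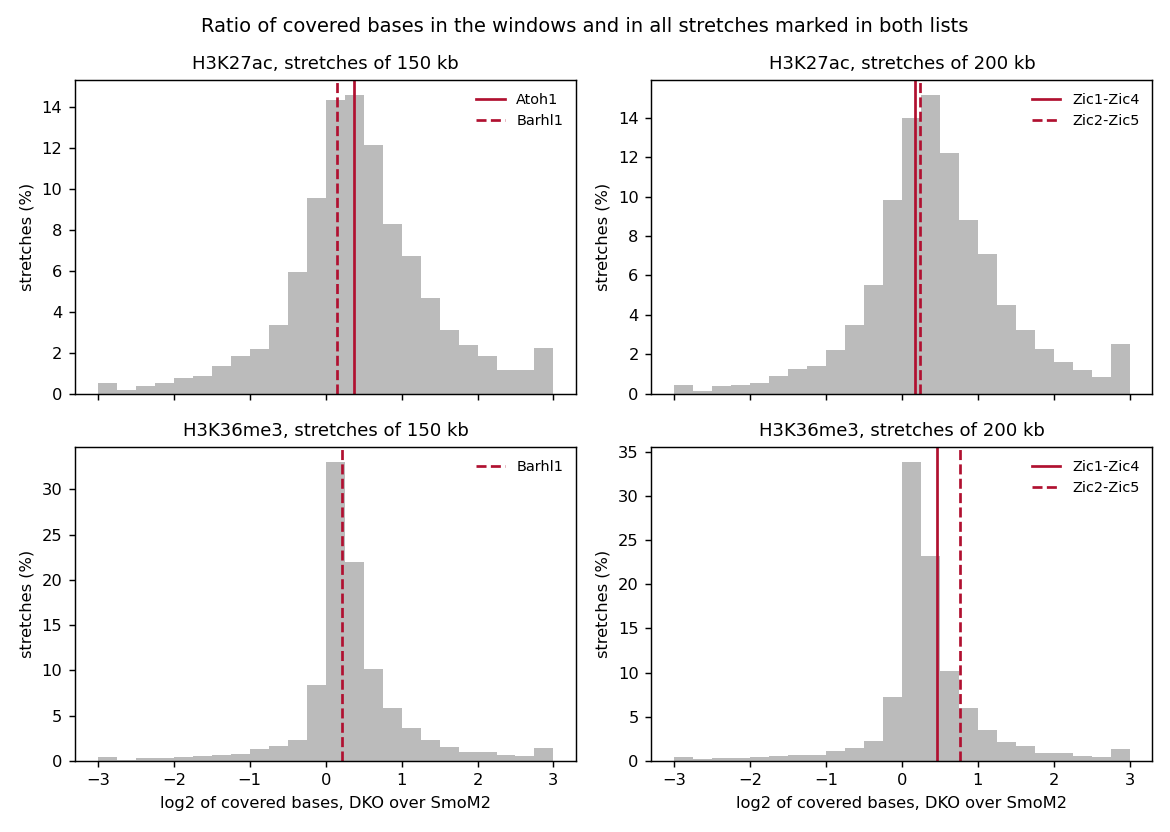
Distribution of the log2 ratio of covered bases, DKO over SmoM2 (horizontal axis), as the percentage of stretches marked in both lists (vertical axis), for each mark and stretch length, with values beyond 3 in either direction in the outermost bars. Red lines mark the windows, all of which lie to the right of 0, and that of Zic2 and Zic5 for H3K36me3 (ratio 1.70) lies farthest out.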

How the data were processed

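The 16 ChIP-seq libraries form 8 groups by their labelled genotype and antibody, 2 groups being input. Per the labels' descriptions, each genotype and antibody has 1 merged peak list. The build mm9 and the tools MACS2, BWA, bedtools and Trimmomatic 0.36 are listed, per the submitters' processing notes. The sources used here give neither their roles, nor whether reads or peaks were merged, nor whether input was the control. The labels' protocol also names an Olig2 antibody on the beads, so Gli2 lists are named by the antibody of each sample. Fold enrichment, as the authors deposited it, is a ratio to background, averaged over a region for histone lists. The p-values and q-values the authors deposited stand in the lists as −log10 values. A deposited score column was not used, and the remaining ones hold positions. Fold values rank regions within 1 list only.

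Chromosomes 1 to 19, X and Y were used. Regions were clipped to the windows and covered bases summed, and an overlap needed at least 1 base. Fragment numbers were recovered from fold and p for 148 of 148 SmoM2 and 1425 of 1426 DKO Gli2 peaks, within 0.01 of −log10 p. Functions were tested on simulated data. Named regions were all Gli2 peaks, the 3 widest, the highest and the widest one-genotype H3K27ac region per window and genotype, and the 3 widest H3K36me3 regions. A few others were named after their values were seen. The windows and rules were chosen with earlier results of these data known. Lists of cell type markers were not used because no mm9 annotation was at hand. Tables were handled with pandas 2.3.3 and numpy 2.4.6 in Python 3.11.15, intervals came from scipy 1.17.1 and plots from matplotlib 3.10.9.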

Additional observations from a re-analysis of the deposited data

How the results depend on the processing

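Other window bounds, stricter thresholds, joining of regions, lists of equal length, other overlap rules and scaling gave further values of each result. Of the values of results above 0, 74 kept their direction and lay within a factor of 1.5, 3 fell to 0 and 6 changed direction, and the 4 for a grid whose stretches start at the middle of the earlier ones, chosen after seeing the data, stayed. A further 50 values of Gli2 counts, or of Gli2 overlaps with H3K27ac, that were 0 stayed at 0. Only windows widened by 50 kb could have raised them, so the other settings say nothing about their stability. Some of the 74 could not move either. No H3K27ac region of the windows had a fold below 3.17, so a threshold of 3 removed none. The Gli2 peak, at a −log10 q of 12.1, had to pass thresholds of 5 and 10. The factor of 1.5 also let some shifts count as kept, such as 1.10 to 1.45 for Barhl1 H3K27ac at a −log10 q of at least 5. With the DKO Gli2 list shortened to the 148 highest peaks, the count in the Atoh1 window and over all 4 windows was 0. Among H3K36me3 regions with −log10 q of at least 5 the Atoh1 window held 0 kb, and no ratio could be had because no SmoM2 region of the windows passed. Divided by the list-wide ratio, H3K27ac ratios were 0.975 for Atoh1, 0.828 for Barhl1, 0.842 for Zic1 and Zic4, 0.883 for Zic2 and Zic5 and 0.868 over all windows, and the H3K36me3 ratio of Barhl1 was 0.977. At −log10 q of at least 5 the H3K27ac ratio over all windows was 1.35, below the list-wide 1.70. With regions at most 10 kb apart joined, the H3K27ac ratio of Atoh1 was 1.63, above the list-wide 1.44. With the grid shifted, 10 of 11 stretches as acetylated as the Zic2 and Zic5 window held a DKO Gli2 peak. No paired analysis was possible because the 2 libraries of a group are merged in 1 list, and leaving out a library could not be run for the same reason.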
